A study of Mus with 15 samples.

Results

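The epidermal growth factor (EGF) family was followed as 10 genes in mouse skin, chosen by gene symbol from a deposited table of 55657 gene models. The 7 ligands were Egf, Areg, Ereg, Hbegf, Tgfa, Btc and Epgn, and the 3 receptors were Egfr, Erbb2 and Erbb3. All 10 were among the 17122 gene models with enough counts to be tested. Poly-A RNA came from 3 groups of 5 libraries. Normal skin was uninjured skin of healthy mice, which the labels call sham. Healthy wound was wound skin of healthy mice after wound surgery, and diabetic wound was wound skin of mice with type I diabetes after the same surgery. The sources used here do not give the strain, age, sex, time after wounding or means of inducing diabetes, and uninjured skin of diabetic mice was not analysed here. Nothing in the labels ties each library to its own animal. The p-values therefore reflect only how far these samples spread, which may be technical.

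EGF family ligands are made as membrane-anchored precursors and are released by proteases of the ADAM family. A released ligand brings receptors of the ERBB family together in pairs, and their kinase domains then feed the RAS-MAPK and PI3K-AKT relays. EGFR binds all the ligands measured here. ERBB2 has no known ligand of its own and acts as a partner receptor, and ERBB3 has a weak kinase and is bound by neuregulins. In skin, the pathway is best known for driving keratinocytes to divide and migrate across a wound and for its part in hair follicle growth.

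The libraries held between 15.7 and 17.8 M counts each. Counts were scaled to CPM, the counts of a gene per M counts of its library, and levels of different genes were compared only after division by the length of the gene model in kilobases (CPM per kb). Marker genes for skin were present throughout: none of 7 basal keratinocyte markers (such as Krt5 and Krt14) was at 0 in any library. In normal skin their summed level was 3919 to 13950 CPM, in healthy wound it was 5755 to 13410 CPM, and diabetic wound ran from 1161 to 19380 CPM. Diabetic wound replicate 4 was at 1161 CPM and diabetic wound replicate 5 at 2786 CPM, below every other library. The same replicate 4 was the lowest diabetic wound library for 7 of the 10 EGF family genes. Values without these 2 libraries are given beside the results that lean most on them.

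The members lie at the following places, as the table gives them. Areg (ENSMUSG00000029378) is at chr5:91139599-91148432 on the plus strand, Ereg (ENSMUSG00000029377) at chr5:91074622-91093646 on the plus strand, Epgn (ENSMUSG00000035020) at chr5:91027464-91035215 on the plus strand, and Btc (ENSMUSG00000082361) at chr5:91357261-91402994 on the minus strand. These 4 ligands form a cluster of 375.5 kb, in which Epgn and Ereg are 39.41 kb apart, Ereg and Areg 45.95 kb apart, and Areg and Btc 208.8 kb apart. Hbegf (ENSMUSG00000024486) is at chr18:36504929-36515805 on the minus strand, Tgfa (ENSMUSG00000029999) at chr6:86195223-86275719 on the plus strand and Egf (ENSMUSG00000028017) at chr3:129677565-129755316 on the minus strand. Among the receptors, Egfr (ENSMUSG00000020122) is at chr11:16752203-16918158 on the plus strand, Erbb2 (ENSMUSG00000062312) at chr11:98412470-98437716 on the plus strand and Erbb3 (ENSMUSG00000018166) at chr10:128567523-128589652 on the minus strand. The library kit does not mark the strand, so reads of overlapping genes cannot be told apart. The overlapping models were small beside the members: Gm19610 had 197 counts over all libraries against 19356 for Ereg, and Mien1, at the end of Erbb2, had 2824 against 20590 for Erbb2.

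The mix of ligands is given first, as shares within each library and without a test. In normal skin, Ereg (epiregulin, a ligand of EGFR and ERBB4) was the most abundant ligand per kb in 5 of 5 libraries and made up 41.9% ± 3.67 of the summed ligand CPM per kb (SD, n = 5). In healthy wound its share was 12.8% ± 6.25, and Hbegf (heparin-binding EGF-like growth factor) was first in 4 of 5 libraries with 28.6% ± 6.12. The ranges for Ereg did not overlap, at 36.4% to 46.1% in normal skin and 4.79% to 20.5% in healthy wound. In diabetic wound Hbegf was first in 4 of 5 libraries with a share of 37.1% ± 16.1, and Ereg had 26.8% ± 21.3, with a range of 10.2% to 61.8% over the 5 libraries. The share of Areg (amphiregulin) was 3.73% ± 1.76 in normal skin. It was 16.8% ± 2.76 in healthy wound and 9.13% ± 9.72 in diabetic wound. Epgn (epigen) held 25.6% ± 3.73, 22.9% ± 7.10 and 14.1% ± 5.91 in the same order. These shares describe RNA and not the protein released.

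**Figure D1:**
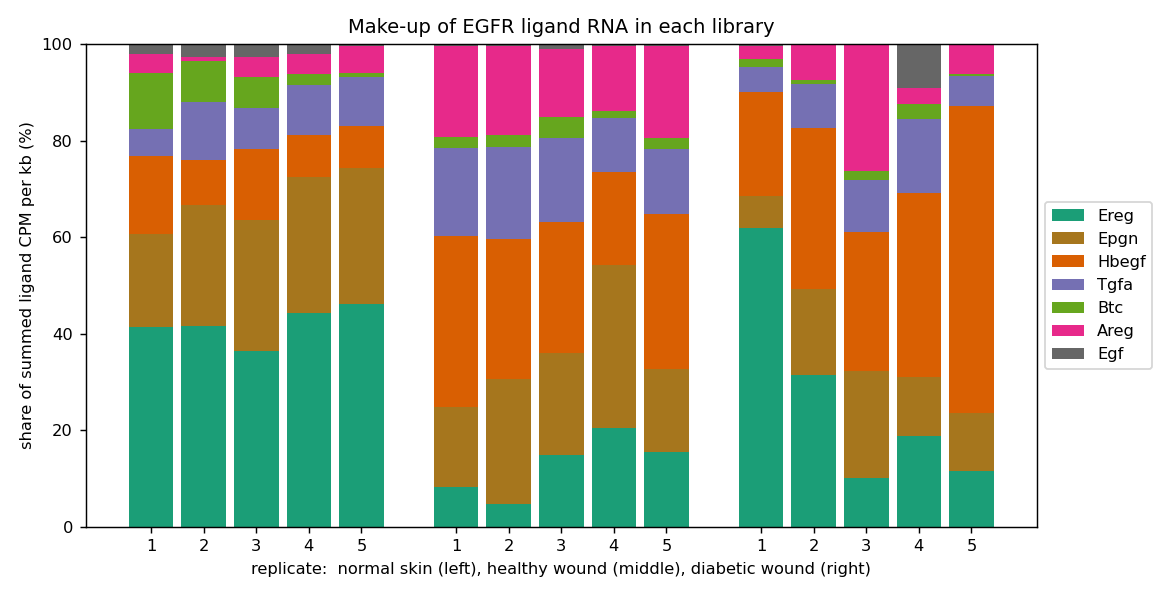
Share of each of the 7 ligands in the summed ligand level (percent of CPM per kb), 1 stacked bar per library, in the 3 groups. Ereg takes 36.4% to 46.1% of each normal skin library and at most 20.5% of a healthy wound library, while diabetic wound libraries differ among themselves from 10.2% to 61.8%.

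The summed ligand level was 52.0 ± 11.3 CPM per kb in normal skin and 57.5 ± 22.3 in healthy wound. It was 93.8 ± 55.0 CPM per kb in diabetic wound (SD, n = 5 per group). In diabetic wound it ran from 7.51 CPM per kb in replicate 4 to 140 at the highest. Ligand per receptor, the summed ligand level divided by the summed level of the 3 receptors, was 0.983 ± 0.302, 1.31 ± 0.377 and 2.17 ± 1.05 in the same order. ERBB2 has no known ligand and ERBB3 is bound by neuregulins, so this ratio is not the ligand level per EGFR. Over all libraries the groups overlapped in both quantities. In ligand per receptor, normal skin (0.585 to 1.30) and healthy wound (0.972 to 1.74) overlapped each other. The overlap of diabetic wound with these groups came from its replicate 4 alone, at 0.395. The other 4 diabetic wound libraries had 2.20 to 2.95, against at most 1.30 in normal skin and 1.74 in healthy wound. Their summed ligand levels were 71.3 to 140 CPM per kb, against at most 62.8 in normal skin and 93.9 in healthy wound. These summed levels were not put to a test.

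In normal skin the order of levels per kb began with Ereg at 21.8 ± 5.21, Erbb2 at 20.9 ± 9.45 and Egfr at 20.0 ± 3.81 CPM per kb, which lay within each other's spread. Erbb3 (14.1 ± 4.58) and Epgn (13.1 ± 2.51) came next, then Hbegf (6.03 ± 2.42), Tgfa (4.79 ± 1.74), Btc (3.36 ± 2.87), Areg (1.87 ± 0.966) and Egf (1.01 ± 0.531). Of the neighbours in this order, the steps from Egfr to Erbb3 and from Epgn to Hbegf were beyond the spread. In healthy wound Hbegf led with 16.6 ± 7.73 CPM per kb and Ereg was eighth with 6.38 ± 1.94, and the steps from Ereg to Btc and from Btc to Egf (0.302) were beyond the spread. In diabetic wound Hbegf led with 31.6 ± 17.8 CPM per kb and Ereg followed with 29.3 ± 33.1, and the step from Tgfa (7.66) to Btc (1.15) was beyond the spread. Egf, which gave the family its name, had the lowest level per kb in all 3 groups.

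**Figure D2:**
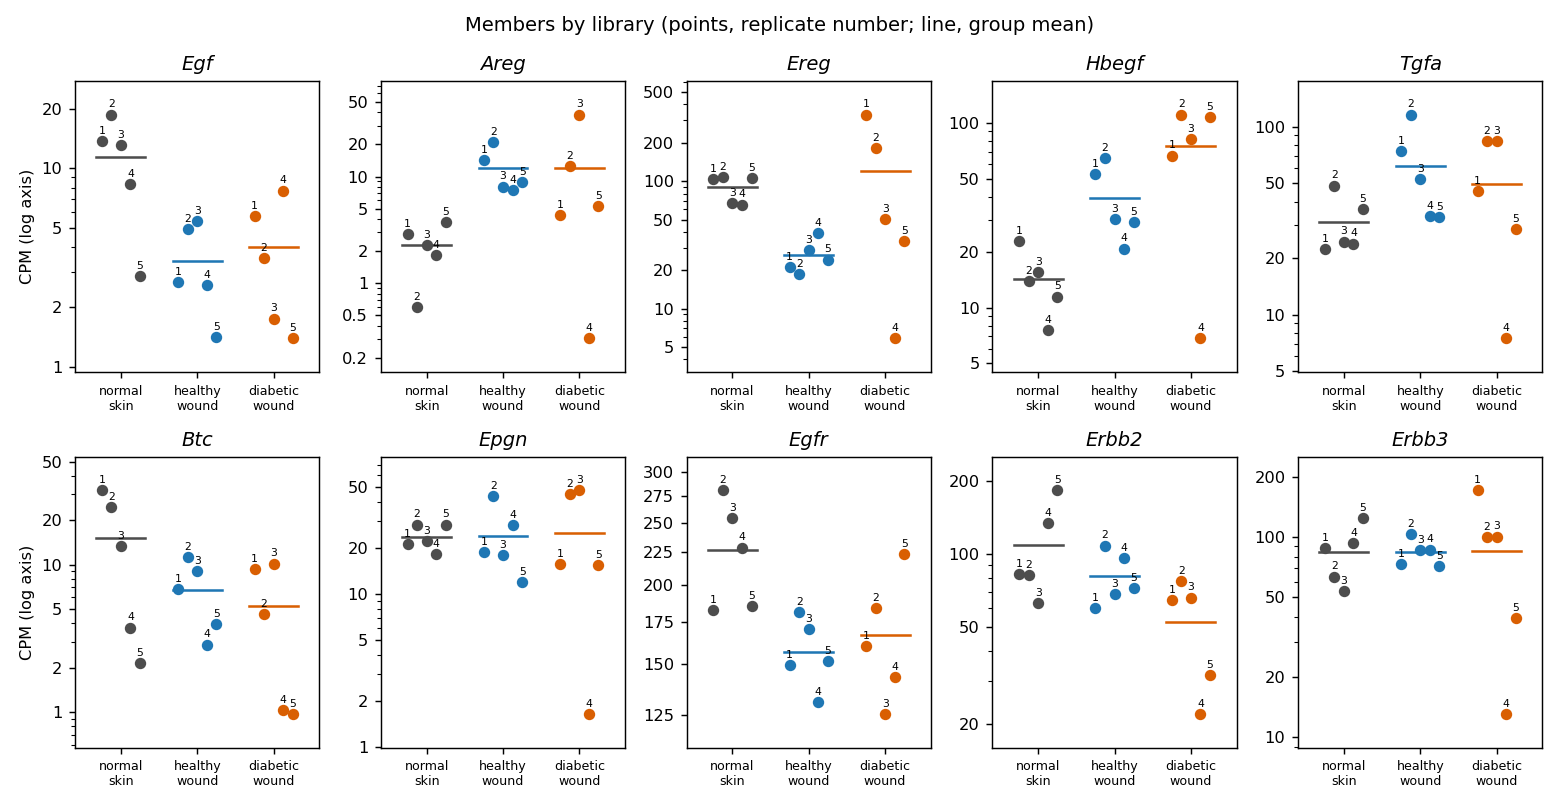
CPM of the 10 EGF family genes in each of the 15 libraries (points, log axis), by group, with the group mean. Areg lies higher and Ereg lower in every healthy wound library than in every normal skin library, and diabetic wound replicate 4 is the lowest of its group for 7 genes, at 6.81 CPM for Hbegf against 66.6 to 111 CPM in the others.

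Wounding in healthy mice was addressed by setting healthy wound against normal skin. In this comparison 0 of the 10 members passed the edgeR quasi-likelihood test at a Benjamini-Hochberg adjusted p under 0.05 over all genes tested. Of all genes, 1.13% (193) passed it, 0.777% higher and 0.350% lower. At an unadjusted p under 0.05 there were 5 of 10 members and 2793 genes (16.3%), and DESeq2 called 2 members and 1147 genes. Groups without overlap in CPM were seen for Areg, which was higher, and for Ereg and Egfr, which were lower. Over all genes, 6.76% had groups without overlap in this comparison, 3.87% higher and 2.89% lower. The median log2 fold change of the members was -0.22, and that of all genes 0.005. In diabetic wound against normal skin, 1 member rose (Hbegf) and 1 fell (Erbb2), against 10.7% of all genes called higher and 8.44% called lower. The share of all genes called in either direction was 19.1%, close to the members' 2 of 10. At an unadjusted p under 0.05 there were 5 of 10 members and 35.8% of all genes, and DESeq2 called 4 members and 4811 genes. None of the members had groups without overlap, against 11.3% of all genes, 6.09% higher and 5.26% lower. The median log2 fold change was 0.04 over the members and -0.0057 over all genes. In diabetic wound against healthy wound edgeR called 0 of 10 members, against 9.15% of all genes, 5.13% higher and 4.02% lower. At an unadjusted p under 0.05 there was 1 member (Ereg) and 28.8% of all genes, and DESeq2 called 1 member and 3174 genes. None of the members had groups without overlap here, against 9.79% of all genes, 5.27% higher and 4.52% lower. The medians were 0.04 over the members and -0.0161 over all genes. These comparisons share libraries, so each is given with its own values.

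**Figure D3:**
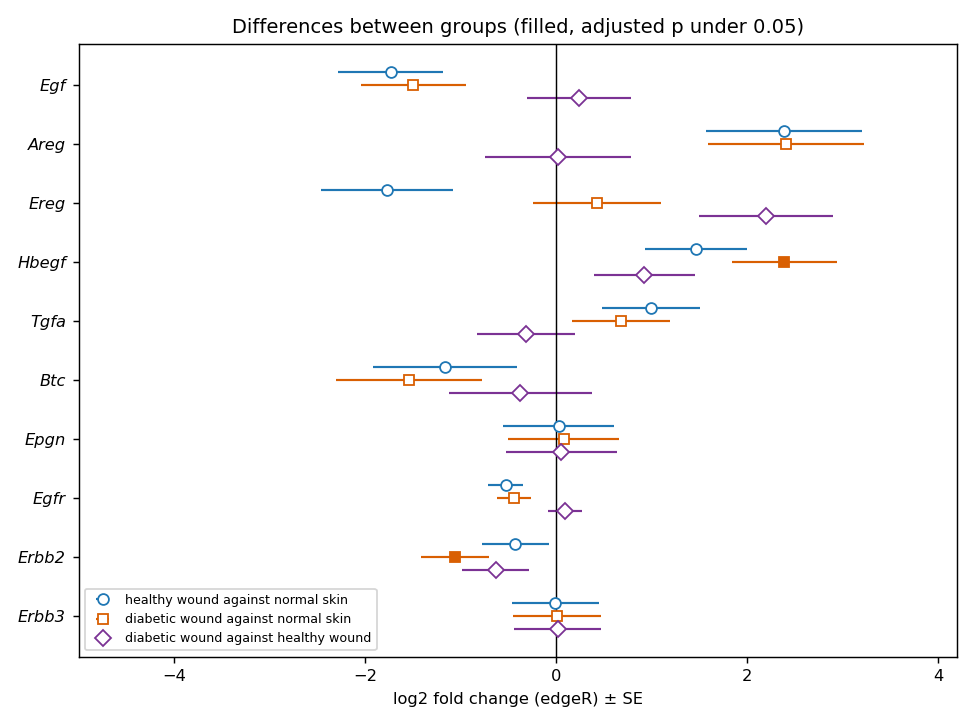
Log2 fold change of the 10 members (points) with its standard error (bars) in the 3 comparisons, from 1 edgeR fit over 15 libraries. The filled points, those with an adjusted p under 0.05, are Hbegf at 2.39 and Erbb2 at -1.06, both in diabetic wound against normal skin.

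Hbegf, a ligand of EGFR and ERBB4 that is shed early after skin injury, was the member with the smallest adjusted p in any comparison. Its levels in normal skin were 23.0, 13.9, 15.6, 7.53 and 11.5 CPM in replicates 1 to 5. In healthy wound they were 52.7, 64.6, 30.2, 20.9 and 28.9 CPM, and in diabetic wound 66.6, 111, 82.0, 6.81 and 108 CPM. Diabetic wound replicates 1, 2, 3 and 5 were above every library of the other groups, and replicate 4 was below every one of them. Hbegf rose in diabetic wound against normal skin by 2.39 on the log2 scale (SE 0.55, adjusted p = 0.0108), and the call held in each of the 15 fits that left out 1 library, with log2 fold changes of 2.20 to 2.68. In healthy wound against normal skin the log2 fold change was 1.46 (SE 0.53, adjusted p = 0.178), and the groups overlapped by 1 library pair of 20.9 and 23.0 CPM. Without diabetic wound replicate 4 this adjusted p was 0.0441, and without replicates 4 and 5 it was 0.039. Against healthy wound the diabetic wound value was 0.92 (SE 0.53, adjusted p = 0.255), or 1.22 (adjusted p = 0.0395) without replicate 4 and 1.13 (adjusted p = 0.0998) without replicates 4 and 5.

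Bulk tissue RNA cannot tell fewer cells of a type from less RNA per cell. In diabetic wound replicate 4 the mean level of 7 basal keratinocyte markers was 5.64 log2 CPM, against 7.62 in replicate 5 and 9.06 to 9.60 in the other diabetic wound libraries. None of these markers was called in any comparison. Neutrophil markers were higher in the wound groups, as Hbegf was: the mean over 7 of them was 2.42 ± 1.03 log2 CPM in normal skin, and the wound means were 5.44 ± 0.89 (healthy) and 6.45 ± 1.13 (diabetic). Their summed level was between 50.5 and 340 CPM in normal skin. It was between 741 and 3904 CPM in healthy wound and between 746 and 3558 CPM in diabetic wound. Of the 7, 4 were called higher in healthy wound and 6 in diabetic wound against normal skin, and Ngp was at 0 in some normal skin libraries. Within the diabetic wound the neutrophil means of replicates 1 to 5 were 4.80, 6.57, 6.60, 6.28 and 7.98 log2 CPM. Hbegf in the same libraries was at 66.6, 111, 82.0, 6.81 and 108 CPM. Replicate 4, lowest for Hbegf, had a neutrophil mean above every healthy wound library. Apart from replicate 4, replicate 1 was lowest for both. The part of either cell type in the Hbegf result was not tested.

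Areg and Ereg are neighbouring genes on chromosome 5 whose products both bind EGFR, amphiregulin with low and epiregulin with broad receptor affinity, and both are made by keratinocytes. They differed in opposite directions in the healthy wound. Areg had 2.91, 0.60, 2.27, 1.84 and 3.73 CPM in normal skin replicates 1 to 5, where replicate 2 held 9 counts. In healthy wound it had 14.3, 20.9, 8.05, 7.48 and 8.85 CPM, so every library was above every normal skin library. The log2 fold change was 2.39 (SE 0.82) with an adjusted p of 0.15. The call was made in a fit of these 2 groups alone (2.40, SE 0.45, adjusted p = 0.0232), with DESeq2 (adjusted p = 0.0268) and without diabetic wound replicates 4 and 5 (adjusted p = 0.0422).

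Ereg was at 103, 108, 67.4, 65.6 and 106 CPM in normal skin and at 21.2, 18.6, 28.7, 39.0 and 24.3 CPM in healthy wound. The highest healthy wound library was thus below the lowest normal skin library. The log2 fold change was -1.77 (SE 0.69, adjusted p = 0.208), and the call was made with these 2 groups alone (-1.76, SE 0.24, adjusted p = 0.0133) and without diabetic wound replicates 4 and 5 (adjusted p = 0.0323). The large spread of both genes in the diabetic wound entered the shared error of the 3-group fit.

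In diabetic wound the libraries disagreed for both genes. Areg was at 4.32, 12.4, 38.1, 0.304 and 5.31 CPM, and replicate 4 held 5 counts. Replicate 3 was the highest of all 15 libraries and replicate 4 the lowest. Against normal skin the log2 fold change of Areg was 2.41 (SE 0.82, adjusted p = 0.0509). It was 2.72 (adjusted p = 0.0114) without diabetic wound replicate 4, 1.29 without replicate 3 and 3.01 (adjusted p = 0.0123) without replicates 4 and 5, and adjusted p was 0.0461 without replicate 1. Against healthy wound it was 0.02 (SE 0.77, adjusted p = 0.989), or 0.62 (adjusted p = 0.577) without replicates 4 and 5.

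Ereg in diabetic wound was at 333, 182, 50.2, 5.84 and 34.0 CPM. Replicates 1 and 2 were above every other library of the study, replicate 3 was below every normal skin library and above every healthy wound library, and replicate 4 was the lowest of all. The mean was 121 ± 137 CPM, against 26.4 ± 7.99 in healthy wound and 90.0 ± 21.5 in normal skin (SD, n = 5 per group). Against healthy wound the log2 fold change was 2.20 (SE 0.70, adjusted p = 0.059). It ranged from 1.38 without diabetic wound replicate 1 to 2.50 without replicate 4, where adjusted p was 0.0146, and adjusted p was 0.0375 without replicate 3. Without replicates 4 and 5 together it was 2.84 (adjusted p = 0.0173), with DESeq2 adjusted p was 0.00807, and with limma-voom it was 0.0338. Against normal skin Ereg was at 0.43 (SE 0.67, adjusted p = 0.674), and at -0.39 without diabetic wound replicate 1 and 1.07 (adjusted p = 0.113) without replicates 4 and 5.

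The ratio of Ereg to Areg within a library does not depend on the scaling between libraries. Per kb, Ereg had 10.5, 52.9, 8.74, 10.5 and 8.34 times the level of Areg in normal skin replicates 1 to 5. In healthy wound the ratios were 0.436, 0.262, 1.05, 1.53 and 0.808, all below every normal skin value. In diabetic wound they were 22.7, 4.32, 0.388, 5.65 and 1.88, a range that covers values of both other groups. The 52.9 in normal skin replicate 2 and the 5.65 in diabetic wound replicate 4 rest on Areg counts of 9 and 5.

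**Figure D4:**
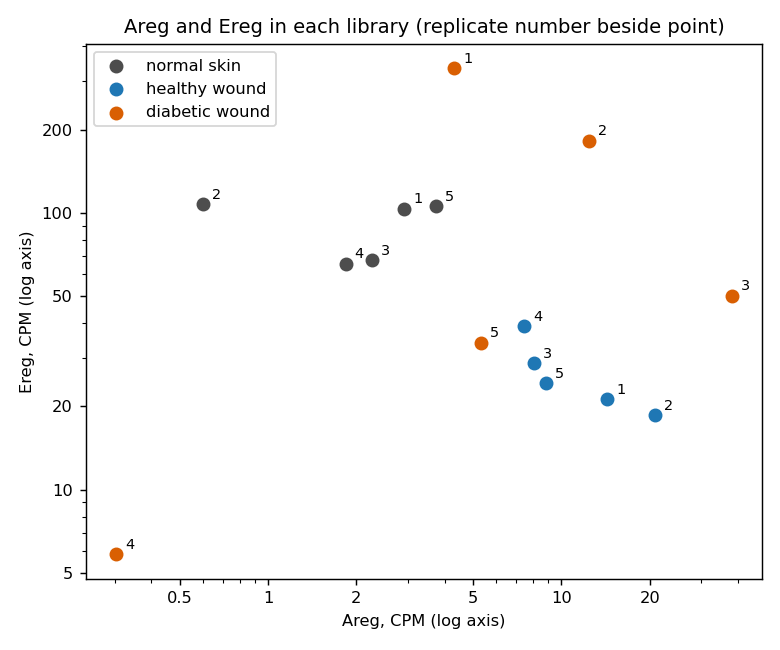
Level of Areg against level of Ereg (CPM, both axes logarithmic) in the 15 libraries, coloured by group. The 5 normal skin libraries (Areg at most 3.73 CPM, Ereg at least 65.6 CPM) and the 5 healthy wound libraries (Areg at least 7.48 CPM, Ereg at most 39.0 CPM) fill separate corners, and the 5 diabetic wound libraries are scattered.

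Wound-edge keratinocyte markers (Krt6a, Krt6b, Krt16, Krt17, Itga5, Sprr1b and Sprr2d) are given beside these ligands. Their mean was 7.01 ± 1.52 log2 CPM in normal skin, and the wound means were 9.19 ± 0.34 (healthy) and 8.13 ± 1.49 (diabetic). Their summed level was 412 to 6813 CPM, 6194 to 11050 CPM and 1044 to 14250 CPM in the same order, with none of the 7 at 0. Of these markers, 1 was called higher in healthy wound and 1 in diabetic wound against normal skin. The part of these cells in the levels of Areg and Ereg was not tested.

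Tgfa (transforming growth factor alpha) and Epgn, a weak-binding ligand named for its place in epithelium, had groups that overlapped in every comparison. Tgfa was at 22.2, 48.6, 24.5, 23.9 and 36.3 CPM in normal skin and at 74.2, 116, 52.7, 33.6 and 33.1 CPM in healthy wound. In diabetic wound it was at 45.3, 83.4, 83.7, 7.48 and 28.7 CPM. The groups overlapped, and the log2 fold changes against normal skin were 0.99 (SE 0.52, adjusted p = 0.371) in healthy wound and 0.68 (SE 0.51, adjusted p = 0.362) in diabetic wound. The latter was 1.19 (adjusted p = 0.069) without diabetic wound replicates 4 and 5. Epgn averaged 23.7 ± 4.54 CPM in normal skin, and the wound means were 24.1 ± 12.5 CPM (healthy) and 25.02 ± 20.2 CPM (diabetic). Its log2 fold changes were 0.02, 0.08 and 0.05 in the 3 comparisons (SE 0.58, adjusted p = 0.992, 0.936 and 0.959), and diabetic wound replicate 4 was again the lowest at 1.64 CPM. Without replicates 4 and 5 the diabetic wound values were 0.61 against normal skin (adjusted p = 0.325) and 0.58 against healthy wound (adjusted p = 0.405).

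Btc (betacellulin) and Egf had their highest group means in normal skin. Btc was at 31.95, 24.6, 13.4, 3.74 and 2.16 CPM in normal skin, so this group alone spread from 2.16 to 31.95 CPM. It averaged 6.76 ± 3.45 CPM in healthy wound and 5.21 ± 4.39 CPM in diabetic wound, with log2 fold changes of -1.16 (SE 0.75, adjusted p = 0.497) and -1.54 (SE 0.76, adjusted p = 0.16) against normal skin. The latter was -0.91 (adjusted p = 0.434) without diabetic wound replicates 4 and 5. Egf was at 13.7, 18.7, 13.2, 8.36 and 2.86 CPM in normal skin. It was at 2.67, 4.95, 5.42, 2.59 and 1.404 CPM in healthy wound and at 5.73, 3.53, 1.75, 7.72 and 1.39 CPM in diabetic wound. Of the normal skin libraries, 4 were above every wound library and replicate 5 lay among them. The log2 fold change of Egf was -1.73 (SE 0.55, adjusted p = 0.124) in healthy wound and -1.49 (SE 0.55, adjusted p = 0.0655) in diabetic wound. DESeq2 called both (adjusted p = 0.026 and 0.0239), limma-voom called the first (adjusted p = 0.0195), and the second was called without normal skin replicate 5 (adjusted p = 0.032) or diabetic wound replicate 4 (adjusted p = 0.035).

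Skeletal muscle markers are given beside Egf by library. The mean over 7 of them, with Acta1 and Ckm among them, was 11.07, 10.93, 10.82, 9.84 and 8.03 log2 CPM in normal skin replicates 1 to 5. In healthy wound it was 9.11, 9.11, 9.75, 7.12 and 7.18, and in diabetic wound 9.61, 10.19, 7.20, 10.59 and 10.85. Their summed level was 2704 to 22100 CPM, 1342 to 9378 CPM and 1428 to 18660 CPM by group, none was at 0 in any library, and 0 of 7 were called in any comparison. Normal skin replicate 5 was the lowest of its group for both the markers and Egf, and healthy wound replicate 3 was the highest of its group for both. Diabetic wound replicate 5, with the highest marker mean of its group, had the lowest Egf level of that group. The part of muscle in the Egf values was not tested.

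Among the receptors, Erbb2 fell in diabetic wound against normal skin and Egfr had the smallest SE of the members. Erbb2 was at 82.8, 82.1, 62.7, 134 and 183 CPM in normal skin, and at 59.7, 109, 68.5, 96.3 and 72.3 CPM in healthy wound. In diabetic wound it was at 64.7, 77.1, 66.3, 21.9 and 31.8 CPM. Diabetic wound replicates 4 and 5 were below every other library, while replicates 1 to 3 lay within the lower part of the other groups. The log2 fold change against normal skin was -1.06 (SE 0.35, adjusted p = 0.0479).

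This Erbb2 call held in 3 of the 15 fits that left out 1 library, those without normal skin replicate 3 (adjusted p = 0.0348), diabetic wound replicate 2 (0.0467) or diabetic wound replicate 3 (0.0457). It was lost without each of the other 12 libraries, namely normal skin replicates 1, 2, 4 and 5, healthy wound replicates 1 to 5 and diabetic wound replicates 1, 4 and 5. Its log2 fold change was -0.79 without normal skin replicate 5 (adjusted p = 0.114), -0.92 without diabetic wound replicate 5 (adjusted p = 0.113) and -0.86 without diabetic wound replicate 4 (adjusted p = 0.0729). Without diabetic wound replicates 4 and 5 together it was -0.65 (adjusted p = 0.186). In the same 2 libraries the basal keratinocyte markers were lowest, at 1161 and 2786 CPM summed, and their median log2 fold change over all libraries was 0.13, with 0 of 7 called. Differentiated keratinocyte markers (8 genes, none at 0) were also lowest there, with means of 5.18 and 6.19 log2 CPM, and highest in normal skin replicates 4 and 5, with 10.49 and 10.86. Their summed level was 6542 to 35570 CPM in normal skin and 477 to 12310 CPM in diabetic wound. Their median log2 fold change was -1.71, and 1 of 8 was called lower. The part of either kind of keratinocyte in the Erbb2 result was not tested. In healthy wound against normal skin the log2 fold change was -0.43 (SE 0.35, adjusted p = 0.623), and in diabetic against healthy wound -0.63 (SE 0.35, adjusted p = 0.244), or -0.23 (adjusted p = 0.698) without diabetic wound replicates 4 and 5.

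Egfr was at 183, 281, 255, 229 and 185 CPM in normal skin and at 150, 181, 170, 131 and 152 CPM in healthy wound. The groups were separate by a narrow margin, with the lowest normal skin library at 182.6 and the highest healthy wound library at 181.3 CPM. In diabetic wound Egfr was at 160, 184, 125, 143 and 223 CPM. The log2 fold change was -0.53 (SE 0.18, adjusted p = 0.147) in healthy wound and -0.44 (SE 0.18, adjusted p = 0.0946) in diabetic wound against normal skin. The first was called with limma-voom (adjusted p = 0.0324) and the second without diabetic wound replicate 5 (-0.56, adjusted p = 0.0472). Against healthy wound, diabetic wound was at 0.09 (SE 0.18, adjusted p = 0.764).

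Erbb3 had group means of 84.7 ± 27.6, 84.1 ± 12.9 and 84.96 ± 61.6 CPM by group, in the order used above (SD, n = 5 per group). In diabetic wound its levels were 171, 100, 101, 13.1 and 39.5 CPM, so replicate 1 was the highest and replicate 4 the lowest of all 15 libraries. Its log2 fold changes were -0.01, 0.00 and 0.01 (SE 0.46). The signs of both diabetic wound values changed with the scaling, and that of healthy wound with the strict filter, limma-voom and 2 groups alone. Without diabetic wound replicates 4 and 5 the diabetic wound values were 0.55 against normal skin (adjusted p = 0.173) and 0.56 against healthy wound (adjusted p = 0.212).

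**Figure D5:**
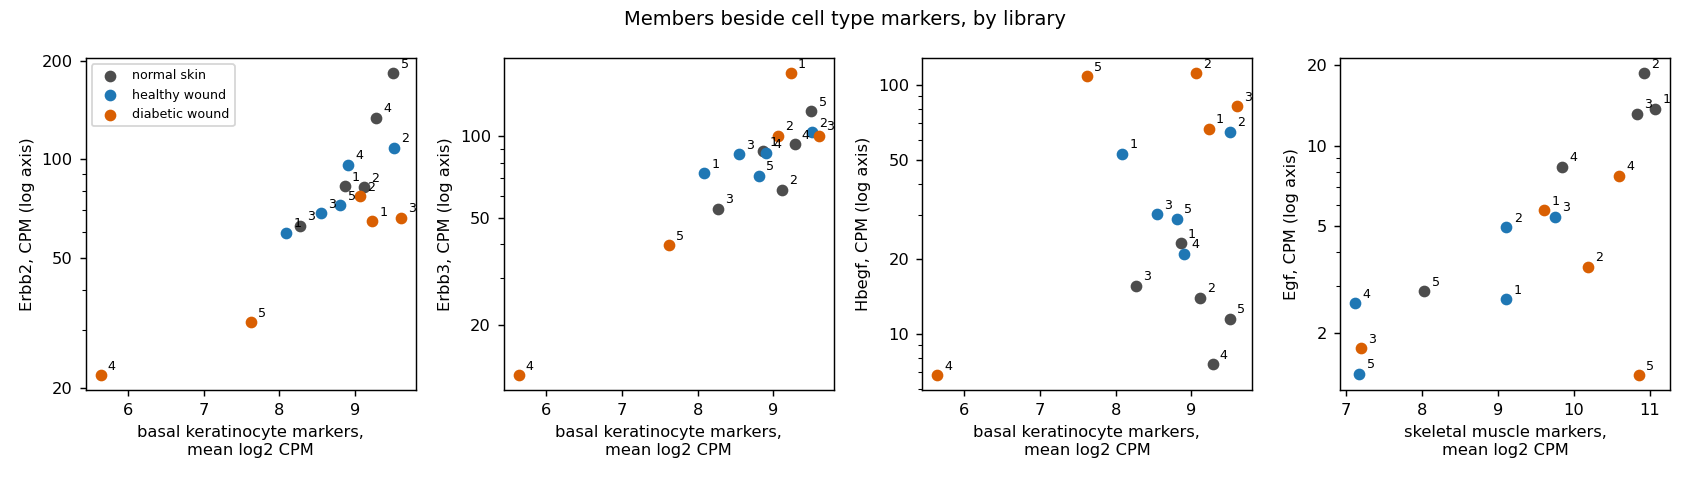
Level of Erbb2, Erbb3 and Hbegf (CPM, log axis) against the mean log2 CPM of 7 basal keratinocyte markers, and of Egf against that of 7 skeletal muscle markers, in the 15 libraries by group. Diabetic wound replicates 4 and 5, at 5.64 and 7.62 on the basal keratinocyte axis, also have the lowest Erbb2 levels, 21.9 and 31.8 CPM.

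The genes most alike to each member over the 15 libraries, by Pearson r of log2 CPM, are given as a description, since they are the highest of 17122 genes and share libraries and group differences. For Egf they were Sbk2 (r = 0.959), Tmod4 (0.947) and Sypl2 (0.941), and for Ereg they were Calcb (0.960), Aldh3a1 (0.913) and Bag1 (0.912). For Areg they were Nod2 (0.894), Ak4 (0.876) and Fam167a (0.863). Nod2, an intracellular sensor of bacterial cell wall fragments, was also second for Hbegf (0.882), between Plk2 (0.903) and Cdk5r1 (0.881). Fam167a was also first for Tgfa (0.941), before the desmosomal cadherin Dsg3 (0.892) and Plet1 (0.880). For Epgn they were the basal integrin Itgb4 (0.919), Crybg2 (0.899) and Rnf222 (0.896), and for Btc Gpc1 (0.882), Megf10 (0.853) and Adcy2 (0.853). The receptor Erbb2 was most like Emp2 (0.964), Atp10b (0.956) and Sytl1 (0.956), and Erbb3 was most like the tight junction gene Cldn4 (0.963), Epn3 (0.962) and Ccdc120 (0.960). The values for Egfr were lower, with Igsf21 at 0.891, Fzd9 at 0.861 and Pitpnm2 at 0.838.

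The rest of the pathway was described with 74 genes in 6 lists, of which 72 were tested. The lists were chosen with earlier results of these data known, so their shares are a description and not independent support. In healthy wound against normal skin, 2 of 72 were called, both higher, against 1.13% of all genes. In diabetic wound against normal skin 20 were called higher and 2 lower, which is 30.6% against 19.1% of all genes. In diabetic against healthy wound 7 were called higher and 2 lower, which is 12.5% against 9.15%. Without diabetic wound replicates 4 and 5 the counts were 5, 13 and 1. Over all genes, 605, 1994 and 658 were called without these 2 libraries, against 193, 3272 and 1567 with all libraries. Leaving out 1 library gave 0 to 3 calls in the first comparison (0 without normal skin replicate 4 or healthy wound replicate 5). It gave 12 to 23 in the second (12 without diabetic wound replicate 5) and 0 to 14 in the third (0 without healthy wound replicate 5, 14 without diabetic wound replicate 3). Over all genes, such fits called 3 to 392, 2029 to 3824 and 230 to 2925 in the 3 comparisons.

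The neuregulins are the ligands of ERBB3 and ERBB4. Of 5 genes in this list, 3 were tested, and Nrg3 and the receptor Erbb4 had too few reads. Nrg3 had 2 counts in normal skin and 0 in both wounds, and Erbb4 had 9, 4 and 11 counts by group in the same order as above. Of the 3 tested, 1 had a positive log2 fold change in either wound against normal skin. The median was -0.83 in healthy wound and -0.89 in diabetic wound. All 3 had an unadjusted p under 0.05 in both, against 16.3% and 35.8% of all genes, and only Nrg1 was called. Nrg1 rose in both wounds, from a mean of 2.598 ± 1.38 CPM in uninjured skin. Its mean was 11.5 ± 3.40 CPM in healthy wound and 13.5 ± 9.15 CPM in diabetic wound (SD, n = 5 in each). In healthy wound every library, at 7.92 to 16.6 CPM, was above the highest normal skin library, at 4.87 CPM, and the log2 fold change was 2.15 (SE 0.49, adjusted p = 0.0481). That call was lost in 11 of 15 fits that left out a library, which were those without normal skin replicates 1, 3, 4 or 5, any healthy wound replicate, or diabetic wound replicates 1 or 2 (adjusted p up to 0.11). In diabetic wound the log2 fold change of Nrg1 was 2.37 (SE 0.49, adjusted p = 0.00619), and the call held in 15 of 15 such fits. Diabetic wound overlapped normal skin, with its lowest library at 3.53 CPM.

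Of the 11 proteases that release the ligands and their regulators, Adam8, a protease also made by leukocytes, rose in both wounds. Its level was 31.1 ± 14.6 CPM in normal skin, and the wound means were 147 ± 50.9 CPM (healthy) and 290 ± 93.8 CPM (diabetic). Neither wound group overlapped normal skin. The log2 fold change was 2.24 (SE 0.34, adjusted p = 0.0154) in healthy wound, where the call was lost without normal skin replicate 4 (0.0514) or healthy wound replicate 5 (0.0544). In diabetic wound it was 3.22 (SE 0.35, adjusted p = 0.000346), held in 15 of 15 fits. The neutrophil markers given above moved in the same comparisons, and their part in the Adam8 result was not tested. Rhbdf2, a partner of the sheddase ADAM17, rose by 0.85 (SE 0.22, adjusted p = 0.019) in diabetic wound, a call lost without diabetic wound replicate 5 (0.0509). Adam9 rose by 0.84 (SE 0.25, adjusted p = 0.0297), a call lost without normal skin replicates 1, 2 or 5 or diabetic wound replicates 2 or 4. Against healthy wound, 2 sheddases were called lower in diabetic wound, as were 4.02% of all genes. For both, healthy wound had the highest mean. Adam12 is made by connective tissue cells and can cleave the HB-EGF precursor. It was at 50.0 ± 64.2 CPM in normal skin, 233 ± 106 CPM in healthy wound and 44.6 ± 25.1 CPM in diabetic wound. Adam19 was at 47.6 ± 17.1, 86.2 ± 26.1 and 37.8 ± 19.0 CPM in the same order. The log2 fold change of Adam12 was -2.39 (SE 0.67, adjusted p = 0.0399), and that of Adam19 was -1.19 (SE 0.35, adjusted p = 0.0465). Both calls were lost without normal skin replicate 1, healthy wound replicates 1, 3, 4 or 5 or diabetic wound replicates 1, 2 or 5. That of Adam12 was also lost without healthy wound replicate 2, and that of Adam19 without normal skin replicates 3 or 4. Without diabetic wound replicates 4 and 5 together, adjusted p was 0.0891 for Adam12 and 0.0846 for Adam19. Of 6 fibroblast markers, 3 were called lower in the same comparison, with summed levels of 22500 to 102900 CPM in healthy wound and 1668 to 15770 CPM in diabetic wound, and none was at 0. The part of these cells in the 2 sheddase results was not tested.

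Among 14 genes that restrain ERBB receptors, 4 rose in diabetic wound against normal skin and 10 were not called. Of all genes, 10.7% were called higher in this comparison. The log2 fold change was positive for 7 of the 14, with a median of 0.04, against -0.0057 for all genes. Errfi1, whose product (MIG6) binds and inhibits the EGFR kinase domain, was at 134 ± 53.8 CPM in normal skin. The wound means were 105 ± 40.8 CPM (healthy) and 340 ± 126 CPM (diabetic). It rose by 1.34 on the log2 scale against normal skin (SE 0.35, adjusted p = 0.0189), and adjusted p was 0.0714 without diabetic wound replicates 4 and 5. Against healthy wound it rose by 1.69 (SE 0.36, adjusted p = 0.0177), a call lost without healthy wound replicate 5 (0.0538) and without diabetic wound replicates 4 and 5 together (0.0523). Cblb, a ubiquitin ligase that marks activated receptors for breakdown, rose by 0.99 (SE 0.24, adjusted p = 0.0139) against normal skin. It rose by 0.90 (adjusted p = 0.0347) against healthy wound, where the call was lost without any one healthy wound library or without diabetic wound replicates 1, 2 or 5, and without replicates 4 and 5 together (0.0854). The phosphatase genes Ptpn1 (0.61, adjusted p = 0.0367) and Ptprj (0.88, adjusted p = 0.0442) completed the 4. Both calls were lost without any one diabetic wound library or without normal skin replicates 1 or 4, and without diabetic wound replicates 4 and 5 together (0.0845 and 0.152). That of Ptpn1 was also lost without normal skin replicate 2. That of Ptprj was lost too without healthy wound replicates 3 or 5 or normal skin replicate 5.

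Of 18 genes for adaptors and the RAS-MAPK relay, 4 rose and 1 fell in diabetic wound against normal skin, and those reported are described here. The shares of all genes called in this comparison were 10.7% higher and 8.44% lower. Map2k1, which encodes the kinase MEK1, rose from 68.6 ± 12.7 to 121 ± 19.5 CPM, with no overlap between the groups and a log2 fold change of 0.82 (SE 0.16, adjusted p = 0.00463). Grb2, the adaptor that links activated receptors to RAS activation, rose by 0.86 (SE 0.21, adjusted p = 0.013), with an adjusted p of 0.0536 without diabetic wound replicates 4 and 5. Araf, which encodes a kinase upstream of MEK, fell (log2 fold change -0.55, SE 0.13, adjusted p = 0.0135), with no overlap between the groups. The adaptor gene Gab2 rose by 1.21 (SE 0.36, adjusted p = 0.0318), and its call was lost without normal skin replicates 1, 3, 4 or 5 or diabetic wound replicates 2 or 5. Without diabetic wound replicate 5 its log2 fold change was 0.81, and without replicates 4 and 5 together 0.82 (adjusted p = 0.126). Against healthy wound Sos2, an activator of RAS, rose (0.96, adjusted p = 0.0391), and its call was lost without any one healthy wound library, normal skin replicates 1, 3 or 4, or diabetic wound replicates 1, 2 or 5, and without replicates 4 and 5 together (0.0904).

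The 16 genes that MAPK signalling is known to induce, among them its feedback inhibitors, had 7 members that rose and 0 that fell in diabetic wound against normal skin. Of all genes, 10.7% were called higher and 8.44% lower in this comparison. The median log2 fold change of the 16 was 1.21, against -0.0057 for all genes. This list, too, was chosen with earlier results of these data known, so these values are a description. Fosl1, a subunit of the transcription factor AP-1, was at 6.54 ± 5.45 CPM in normal skin, 11.1 ± 4.77 CPM in healthy wound and 42.2 ± 21.2 CPM in diabetic wound. Every diabetic wound library, at 21.0 to 76.9 CPM, was above the highest library of normal skin (16.1 CPM) and of healthy wound (18.2 CPM). Its log2 fold change was 2.69 (SE 0.50, adjusted p = 0.00411) against normal skin and 3.35 without normal skin replicate 1. Against healthy wound it was 1.93 (SE 0.48, adjusted p = 0.029), a call lost without healthy wound replicates 1, 2, 4 or 5 or diabetic wound replicates 2 or 5, and without diabetic wound replicates 4 and 5 together (0.0627). Ier3, an early stress response gene, rose by 3.18 (SE 0.61, adjusted p = 0.00476) against normal skin, or by 2.53 without diabetic wound replicate 5. Dusp5, a phosphatase that switches off ERK, rose by 1.61 (SE 0.39, adjusted p = 0.0134). Phlda1 rose by 1.38 (SE 0.37, adjusted p = 0.0196), a call lost without diabetic wound replicate 5 (0.0559). The other 3 called were Myc (1.26, adjusted p = 0.0303), Dusp6 (1.25, adjusted p = 0.0308) and Spry2 (1.16, adjusted p = 0.0359). In this comparison these 3 calls were not followed singly in the fits that left out libraries or under the other settings. Against healthy wound Spry2, an inhibitor of receptor kinase signalling, also rose, by 1.41 (SE 0.36, adjusted p = 0.0312), and the call was lost without healthy wound replicates 1, 2, 4 or 5 or diabetic wound replicates 1, 2 or 5.

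Of 10 genes of the PI3K relay, 1 rose and 1 fell in diabetic wound against normal skin, against 19.1% of all genes called in this comparison. The 2 encode related AKT kinases. Akt1 rose from 232 ± 28.6 to 371 ± 34.9 CPM, with no overlap and a log2 fold change of 0.67 (SE 0.14, adjusted p = 0.00568). Akt2 fell, with a log2 fold change of -0.61 (SE 0.18, adjusted p = 0.0323), and its call was lost without normal skin replicates 1 or 3 or diabetic wound replicates 1, 3 or 5, and without diabetic wound replicates 4 and 5 together (0.0863). Against healthy wound Akt1 was higher by 0.45 (adjusted p = 0.0499) with no overlap in CPM. That call was kept only without normal skin replicate 2 or diabetic wound replicate 3 and was lost in the other 13 fits that left out a library and without diabetic wound replicates 4 and 5 together (0.117). In healthy wound against normal skin, 0 of the 14 brake genes, 0 of the 18 relay genes, 0 of the 16 MAPK-induced genes and 0 of the 10 PI3K genes were called by edgeR. At an unadjusted p under 0.05 there were 2, 4, 5 and 3 of them, and over all 72 pathway genes DESeq2 called 8.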

How the data were processed

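The authors made poly-A libraries with an NEBNext Ultra kit, per the labels' protocols. That kit does not mark the strand. They deposited whole-number read counts per gene and a gene length, which are used here as given. The aligner, counter, strand setting and build: not given in the sources used here. All 10 member symbols matched a RefSeq annotation (GRCm38.p6), but coordinates are the table's own. Diabetic wound columns are numbered 5 to 9 in the table and are replicates 1 to 5 here by their labels.

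The test was edgeR's (4.0.16) quasi-likelihood test on the counts (TMM, filterByExpr, robust) in R 4.3.3, in 1 fit over 3 groups with 12 residual degrees of freedom, with Benjamini-Hochberg adjustment over 17122 genes. Calls are adjusted p under 0.05. The SE is the log2 fold change divided by the square root of F. CPM use TMM library sizes, and log2 CPM a prior count of 2. The procedure was tested on simulated data. No 2 libraries of a group were as alike as counting noise would make them (lowest chi-square per degree of freedom 36.1).

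The members and lists were chosen with earlier results of these data known. The text names all members, the called genes of each pathway list (at most the 4 with the smallest p beyond 5) and the 3 genes most alike to each member, leaving out symbols that begin with Gm and a digit or end in Rik. Of the genes this rule names, 1 is left out of the text, though it stays in the counts. Myc, Dusp6, Spry2 and genes that overlap members were named after their values were seen. The other settings tried were scaling by RLE, by the upper quartile or by library size alone, no filter, and a strict filter that asked for 1 CPM in 5 libraries and 5 CPM on average. Others were DESeq2 1.42.0, limma-voom with sample weights (limma 3.58.1), a fit of only 2 groups, replicate number as block, leaving out each library, and leaving out diabetic wound replicates 4 and 5.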

Additional observations from a re-analysis of the deposited data

Results flagged for a closer look

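Hbegf in diabetic wound replicate 4 stood apart from the other libraries of its group. Its level was 6.81 CPM, against 66.6 to 111 CPM in the other 4 libraries. On the log2 CPM scale, the gap to the nearest library was 0.816 of the group's whole range, above Dixon's critical value of 0.71 for 5 samples. On the CPM scale the gap was 0.573 of the range, below that value, and 0 of 30 combinations passed it. It was the 1 case in 30 gene and group combinations examined, and chance alone flags about 5% of such groups.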

How the results depend on the processing

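Of 750 values of the members under other settings, 630 kept their direction and their side of the threshold, 27 passed it newly, 17 no longer passed it and 76 changed sign. All 76 belong to values that were smaller than their SE. Of 750 values of named pathway genes, 553 kept their call and 197 lost it. Genes called in healthy wound against normal skin (193) were 91 with no filter, 124 with the strict filter, 1147 with DESeq2, 1853 with limma-voom, 537 with 2 groups alone, 91 with the replicate block, 605 without diabetic wound replicates 4 and 5, and 3 to 392 when 1 library was left out. For diabetic wound against normal skin (3272) they were 2138 with no filter, 1430 with 2 groups alone, 1994 without replicates 4 and 5, and 2029 to 3824. For diabetic against healthy wound (1567) they were 574 with no filter, 3174 with DESeq2, 4049 with limma-voom, 801 with 2 groups alone, 173 with the replicate block, 658 without replicates 4 and 5, and 230 to 2925. Members called in the first comparison (0) were 2 with DESeq2, limma-voom or 2 groups alone, 3 without replicates 4 and 5, and 0 to 1 when 1 library was left out. In the second (2) they were 1 with no filter, limma-voom or 2 groups alone, 4 with DESeq2, and 1 to 3. In the third (0) they were 1 with DESeq2, limma-voom or without replicates 4 and 5, and 0 to 2. The Erbb2 call was lost with no filter (adjusted p = 0.0542), limma-voom (0.159), 2 groups alone (0.101) and the replicate block (0.109). That of Areg in diabetic wound against normal skin was gained with RLE scaling (0.0493), the strict filter (0.0497) and DESeq2 (0.00828), and that of Btc with the replicate block (0.0431). Pathway genes called were 8, 26 and 13 with DESeq2, 15, 21 and 16 with limma-voom, 6, 12 and 3 with 2 groups alone, 2, 13 and 2 with no filter and 2, 15 and 0 with the replicate block in the 3 comparisons, and 1 in the first with RLE scaling, upper-quartile scaling or the strict filter. The cause of these changes was not tested.

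Values that changed sign were as follows, as log2 fold changes. For Erbb3 in diabetic wound against normal skin: RLE -0.0019, upper-quartile -0.081, library-size -0.037, no filter -0.034, strict filter -0.044, DESeq2 -0.0019, 2 groups alone -0.00031 and replicate block -0.20. Against healthy wound Erbb3 was at -0.043 with upper-quartile, -0.026 with library-size, -0.031 with no filter, -0.046 with the strict filter, -0.026 with 2 groups alone and -0.17 with the replicate block, and in healthy wound at 0.0018 with the strict filter, 0.055 with limma-voom and 0.0033 with 2 groups alone. Areg in diabetic against healthy wound was at -0.00059 with RLE, -0.024 with upper-quartile, -0.017 with library-size, -0.042 with no filter, -0.031 with the strict filter, -0.00077 with DESeq2, -0.60 with limma-voom, -0.020 with 2 groups alone and -0.65 with the replicate block. Epgn in healthy wound was at -0.015 with upper-quartile, -0.086 with limma-voom and -0.040 with the replicate block, and in diabetic wound at -0.014 with upper-quartile and -0.24 with the replicate block against normal skin and -0.20 with the block against healthy wound. Ereg in diabetic wound against normal skin was at -0.068 with the replicate block. Without diabetic wound replicates 4 and 5, Tgfa was at 0.19, Btc at 0.25 and Egfr at -0.0048 against healthy wound. When 1 library was left out, the ranges that crossed 0 were -0.30 to 0.20, -0.29 to 0.38 and -0.32 to 0.38 for Epgn, and -0.12 to 0.17, -0.42 to 0.28 and -0.42 to 0.29 for Erbb3 in the 3 comparisons. They were -0.39 to 0.74 for Ereg in diabetic wound against normal skin, and against healthy wound -1.10 to 0.33 for Areg, -0.59 to 0.034 for Tgfa, -0.14 to 0.47 for Egf and -0.034 to 0.18 for Egfr.

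The labels do not tie the replicate numbers to shared animals or days. Same-numbered libraries of different groups had correlated deviations over 0.1 in 4 of 15 pairs (-0.21 to 0.238), and 3 of 15 were highest with their own number. All 4 were among the 5 pairs of healthy wound with normal skin (0.238, 0.101, 0.225 and 0.12, with -0.054 in the other), and no comparison had every pair over 0.1, so the numbers were not taken as a pairing. At 5 and 9 counts, single Areg values are limited by depth.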

Other observations

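Hair follicle markers, a site where EGF family genes are used in normal skin, differed widely between libraries. The mean over 10 of them was -0.39, 1.05, 4.90, 5.29 and 7.49 log2 CPM in normal skin replicates 1 to 5, and -0.12, 7.42, -0.42, 5.69 and 4.25 in healthy wound. In diabetic wound it was -0.73, -0.95, -0.91, -2.31 and -2.07. Their summed CPM ran from 27.99 to 4357 in normal skin, from 15.5 to 5898 in healthy wound and from 1.52 to 21.9 in diabetic wound. Krt71 was at 0 in some libraries of each group. Of the 10 markers, 9 were called lower in diabetic wound against normal skin and 6 against healthy wound. Erbb2 was at its highest in normal skin replicates 4 and 5, which also had the highest hair follicle marker means of normal skin. Replicate 3, with a marker mean of 4.90, had the lowest Erbb2 level of normal skin, 62.7 CPM. The part of hair follicles in the Erbb2 result was not tested.

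Healthy wound replicate 2 was the highest of its group for 8 of the 10 EGF family genes, as diabetic wound replicate 4 was the lowest of its group for 7 of them. In that healthy wound library the hair follicle marker mean was 7.42 log2 CPM and the basal keratinocyte marker mean 9.51, each the highest of its group. Healthy wound replicate 4, next in hair follicle markers with 5.69, was the lowest of its group for 4 of the 10 genes and the highest for 1. The part of any cell type in these patterns was not tested.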
